A study of Sus scrofa with 13 samples.

Results

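Antioxidant enzymes remove superoxide and peroxides, which muscle mitochondria release as a by-product of respiration. A list of 10 genes for such enzymes was followed here, and 9 of them matched a gene of both count tables, out of 25322 genes counted. They were chosen by symbol, and GPX1, the tenth, matched no identifier of the tables by symbol and was not analysed here. By the main site of their proteins, SOD2, PRDX3, PRDX5 and TXN2 were grouped as mitochondrial, SOD1, GPX4 and PRDX6 as cytosolic, CAT as peroxisomal and GPX3 as extracellular. PRDX5 and GPX4 are also made in forms for other compartments, which counts per gene do not separate.

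The RNA came from longissimus lumborum, the loin muscle, of 13 female pigs aged 6 months. The pigs belonged to 4 groups, namely Hampshire with high (n = 3) or low (n = 3) loin weight and Pietrain with high (n = 4) or low (n = 3) loin weight. No treatment, transgene or deletion is named for any group. Loin weight was the criterion for choosing these pigs, none of them close relatives, so the groups are the extremes of each breed rather than a random sample of it. Each pig gave 1 piece of muscle, so a difference in the mix of fibres or cells sampled and a difference within fibres cannot be told apart, nor can fewer cells of a type and less RNA per cell. Hampshire and Pietrain pigs are in separate tables, so breed cannot be told apart from the processing of each table.

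Superoxide dismutases turn superoxide into hydrogen peroxide, SOD1 with copper and zinc in the cytosol and SOD2 with manganese in the mitochondrial matrix. The peroxide is then removed by catalase (CAT), by glutathione peroxidases (GPX), of which GPX4 reduces lipid peroxides in membranes and GPX3 is secreted, and by peroxiredoxins (PRDX). PRDX3 and PRDX5 are reduced through the thioredoxin system, whose mitochondrial thioredoxin is TXN2, while PRDX6 uses glutathione. Oxidative, slow muscle fibres hold more mitochondria than fast glycolytic fibres, and the loin of pigs consists mostly of fast fibres.

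The total number of counted reads ranged from 11312755 to 20134612 per pig, and the members took between 13985 and 26920 of them. Counts differed beyond sampling noise in all 15 pairs of pigs within groups, the smallest chi-square per degree of freedom being 23.7. ACTA1, skeletal muscle actin, was present in every pig, between 27220 and 137653 CPM. CPM are normalised read counts, scaled to a common library size by TMM over all 13 pigs, and they are not divided by gene length. Pietrain low loin weight pig 5 stood apart in slow fibre genes, whose 5 matched markers summed to 27.7 CPM there and to between 747 and 17787 CPM in the other pigs. Genes were called where the adjusted p-value was under 0.05 and the fold change at least 1.2, in edgeR's quasi-likelihood test.

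**Figure D1:**
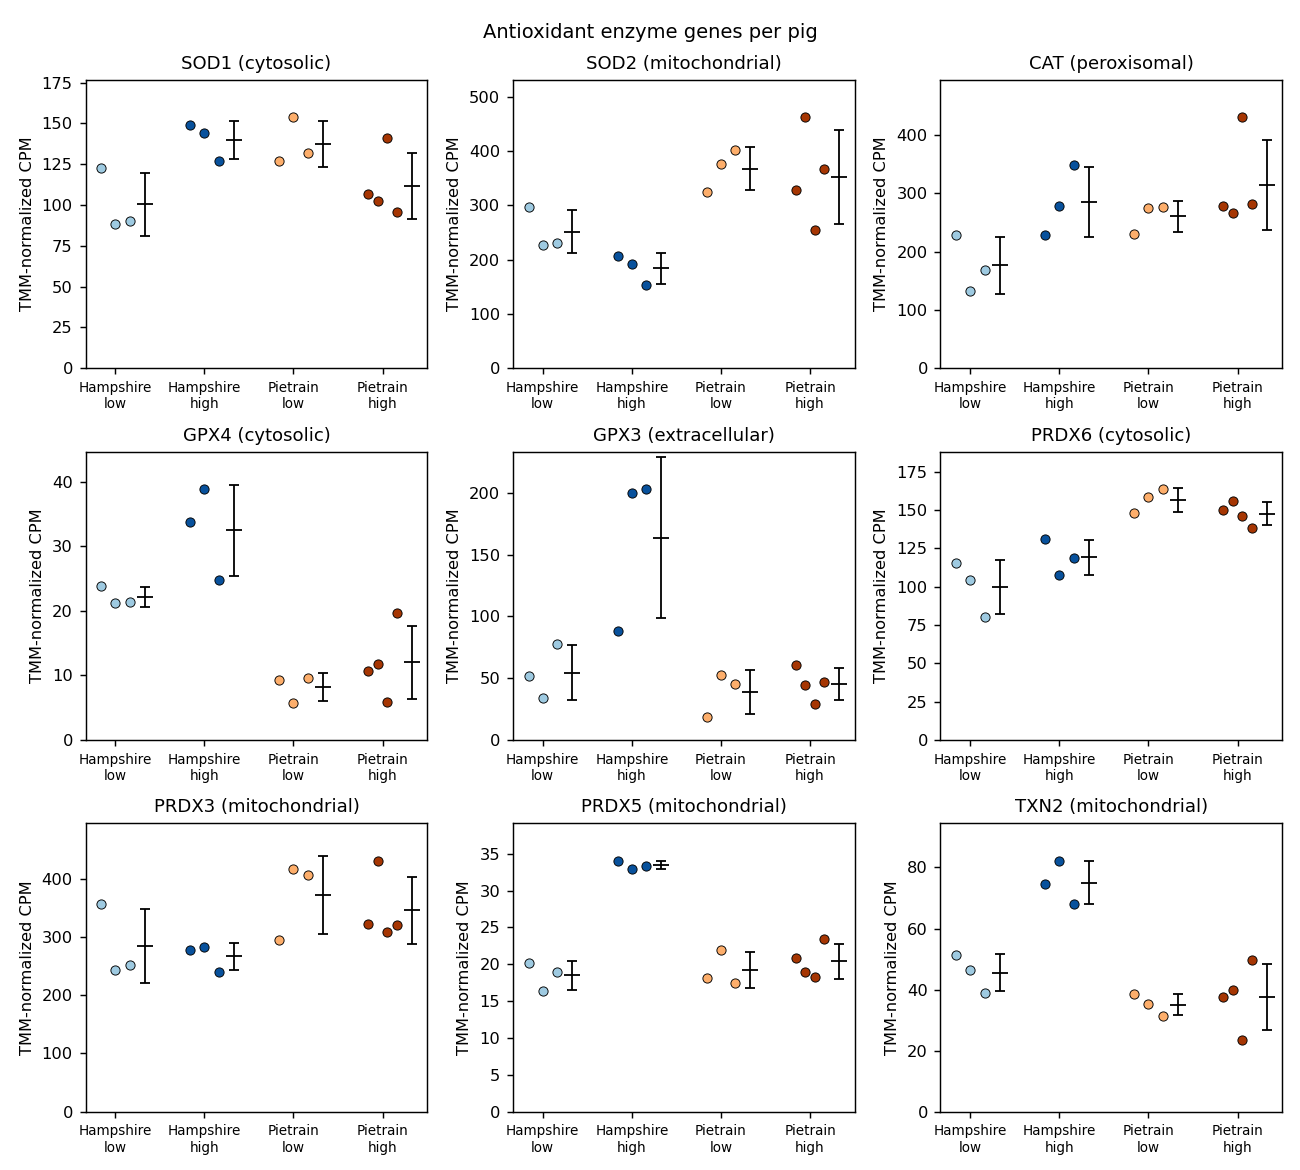
TMM-normalized CPM of each of the 9 genes (vertical axis, linear, from 0) in each pig (points) of the 4 groups of breed and loin weight (horizontal axis), with the group mean and SD beside the points. The 3 Hampshire pigs with high loin weight lay above every other pig for PRDX5 (32.98 to 34.0 CPM) and TXN2 (68.0 to 82.1 CPM). They did so too for GPX3 (88.4 to 203 CPM) and GPX4 (24.9 to 38.9 CPM), and lay below every other pig for SOD2 (152 to 207 CPM).

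In Hampshire, 3 members rose with high loin weight, the mitochondrial PRDX5 and TXN2 and the secreted GPX3, and 0 fell. SOD2 had lower values in every pig with high loin weight, while SOD1, CAT and GPX4 had higher ones, and these 4 did not pass the threshold. Among all genes tested in Hampshire 26.6% were called, 12% as higher and 14.6% as lower. The members' 3 of 9 is near the 26.6% of all genes, which takes both directions together. Before adjustment, 7 of the 9 members had a p-value under 0.05, against 41.2% of all genes. Values of the high and the low group were apart, with no overlap, for 7 members, against 45.9% of all genes. Of these, 6 were higher and 1 was lower, against 22.4% and 23.5% of all genes. The median log2 fold change (log2FC, high against low loin weight) of the members was 0.54, against 0.03 over all genes tested.

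PRDX5 (ENSSSCG00000013030, chromosome 2 of Sscrofa10.2 from 6864027 to 6867851), a peroxiredoxin of mitochondria and peroxisomes, was counted at 34.0, 32.98 and 33.4 CPM in Hampshire pigs 8, 9 and 10 with high loin weight. In pigs 1, 2 and 3 with low loin weight it was at 20.2, 16.3 and 19.0 CPM. The spread within the high group was small, with a mean of 33.5 ± 0.532 CPM (n = 3, SD) against 18.5 ± 1.98 CPM (n = 3, SD). The log2FC was 0.85 (standard error, SE, 0.157, adjusted p = 0.00746, edgeR), a 1.80-fold difference. PRDX5 stayed called in each of the 6 fits that left out a pig, with adjusted p-values from 0.0156 to 0.0399. The call was lost when a trend of log CPM on gene length (genomic span) was removed in each pig (log2FC 0.47, adjusted p = 0.0526).

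TXN2 (ENSSSCG00000000144, chromosome 5, 8997100 to 9010837), the electron donor for mitochondrial peroxiredoxins, was at 74.7, 82.1 and 68.0 CPM in the Hampshire pigs with high loin weight. It was at 51.2, 46.4 and 39.0 CPM in those with low loin weight, so the groups did not overlap. The log2FC was 0.71 (SE 0.166, adjusted p = 0.0165). Leaving out pig 3 of the low group took the adjusted p-value to 0.0769.

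GPX3 (ENSSSCG00000017092, chromosome 16, 78282294 to 78290916) had the largest log2FC of the members in Hampshire, at 1.59 (SE 0.380, adjusted p = 0.0178), or 3.01-fold. The high group varied most for this gene, with 88.4 CPM in pig 8 and 199 and 203 CPM in pigs 9 and 10. Pigs 1, 2 and 3 of the low group were at 52.0, 33.9 and 77.6 CPM. The call was lost without some single pigs. The adjusted p-value became 0.0574 without low pig 1, 0.0621 without high pig 9 and 0.0583 without high pig 10. The log2FC stayed between 1.33 and 1.92 in all 6 fits that left out a pig.

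The log2FCs of the superoxide dismutases had opposite signs in Hampshire. SOD2 (ENSSSCG00000029876, chromosome 1, 9475309 to 9487684) was at 207, 192 and 152 CPM in the Hampshire pigs with high loin weight and at 297, 228 and 231 CPM in those with low loin weight. Every high value lay below every low value, and the log2FC was -0.46 (SE 0.187, unadjusted p = 0.0365, adjusted p = 0.0971, edgeR). SOD1 (ENSSSCG00000021355, chromosome 13, 205620986 to 205629933) was at 149, 144 and 127 CPM in the high group and 123, 88.5 and 90.1 CPM in the low group. Its log2FC was 0.47 (SE 0.183, unadjusted p = 0.0298, adjusted p = 0.0851, edgeR).

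Within each Hampshire pig the ratio of SOD2 to SOD1, which no scaling of the library alters, separated the groups. This follows from the values of the 2 genes, neither of which overlapped between the groups, and is no further support. Of all single genes 45.9% did not overlap in this comparison, and other pairs of genes were not examined. The ratio of their CPM was 1.39, 1.33 and 1.202 in the high group and 2.41, 2.57 and 2.55 in the low group. The mean log2 ratio was 0.39 ± 0.108 (n = 3, SD) and 1.33 ± 0.0489 (n = 3, SD), a difference of -0.94 (from -0.99 to -0.88 when 1 pig was left out). The exact two-sided permutation test gave p = 0.1, the smallest that 3 against 3 pigs allow, and 0.4 adjusted over the 4 ratio tests made. In Pietrain the ratio overlapped between the groups, at 3.06, 4.49, 1.80 and 3.84 in pigs 1, 2, 6 and 7 with high loin weight and 2.55, 2.45 and 3.04 in pigs 3, 5 and 8 with low loin weight. The mean log2 ratio differed by 0.23 (exact permutation test, p = 0.543). Since gene lengths are not accounted for, the ratios compare pigs, not the amounts of the 2 transcripts.

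The mitochondrial and cytosolic peroxiredoxins showed no such separation. The ratio of PRDX3 to PRDX6 was between 2.02 and 2.61 in the Hampshire high group and between 2.33 and 3.13 in the low group. The log2 ratio differed by -0.34 in Hampshire (exact permutation test, p = 0.2) and by -0.02 in Pietrain (p = 0.914 in the same exact test). In the latter comparison the ratio ranged from 2.11 to 2.75 in the high group and from 1.99 to 2.63 in the low group.

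**Figure D2:**
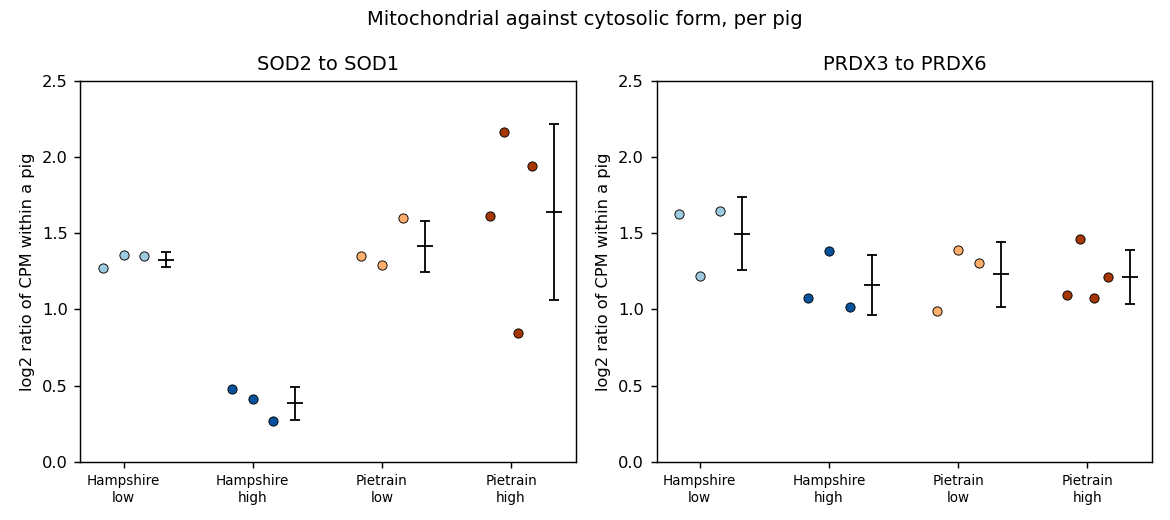
Log2 ratio of CPM within each pig (vertical axis, from 0) for SOD2 to SOD1 and for PRDX3 to PRDX6, by group (horizontal axis), with points for pigs and the mean and SD beside them. For SOD2 to SOD1 the Hampshire groups were apart, with means of 0.39 and 1.33, while the Pietrain pigs with high loin weight spread across the low group.

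CAT (ENSSSCG00000013302, chromosome 2, 28860746 to 28900838) ranged from 229.2 to 349 CPM in the Hampshire pigs with high loin weight and from 132 to 229.1 CPM in those with low loin weight, so the groups met at 229 CPM without overlapping. Its log2FC was 0.69 (SE 0.252, adjusted p = 0.0711). DESeq2 gave CAT an adjusted p-value of 0.0249, and edgeR with each pig left out gave 0.0400 to 0.216. GPX4 (ENSSSCG00000024052, chromosome 2, 77673695 to 77675018) was at 33.8, 38.9 and 24.9 CPM in the high group and 23.9, 21.2 and 21.4 CPM in the low group, a log2FC of 0.54 (SE 0.188, adjusted p = 0.0610). PRDX3 (ENSSSCG00000010682, chromosome 14, 140603477 to 140615527) and PRDX6 (ENSSSCG00000022742, chromosome 9, 127491779 to 127505079) overlapped between the groups. Their log2FCs were -0.10 (SE 0.197, adjusted p = 0.735) and 0.25 (SE 0.183, adjusted p = 0.335). Without low pig 1 both CAT and SOD1 passed (adjusted p = 0.0400 and 0.0383), and without high pig 10 GPX4 passed (adjusted p = 0.0450).

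The mitochondrial members differed in sign in Hampshire, with log2FCs from -0.46 for SOD2 to 0.85 for PRDX5 and a median of 0.31. The 3 cytosolic members measured lay between 0.25 and 0.54, with a median of 0.47. A list of 27 matched genes of mitochondrial content, mostly subunits of oxidative phosphorylation, had 9 genes higher and 0 lower in Hampshire. This stands against 12% of all genes called higher and 14.6% lower. The list had a median log2FC of 0.29. Its summed level was 10451 to 12961 CPM in the high group and 7711 to 10345 CPM in the low group.

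Markers of some other cells and fibres differed between the Hampshire groups, and others did not. Their counts stand beside 12% of all genes called higher and 14.6% called lower in Hampshire. Of 6 fast fibre genes 0 rose and 1 fell, with a median log2FC of -0.08. Their sums overlapped, at 94782 to 103761 CPM in the high group and 92531 to 147125 CPM in the low group. Of 9 skeletal muscle genes 1 rose and 1 fell, with sums of 167060 to 273362 CPM against 118834 to 157214 CPM. All 5 matched slow fibre genes rose, with a median log2FC of 2.06 and summed levels of 11689 to 17787 CPM in the high group and 2832 to 6603 CPM in the low group. Of 11 macrophage genes 3 rose, and the log2FCs of all 11 were above 0, with sums of 186 to 284 CPM against 68.9 to 162 CPM. Among 5 blood markers, 3 were tested and 0 called, and the sums overlapped at 82.3 to 240 and 45.4 to 175 CPM. Of 7 endothelial genes 2 rose, with sums of 238 to 278 CPM against 164 to 209 CPM. Of 5 adipocyte genes, 4 were tested, 2 rose and 1 fell. The median log2FC of the tested ones was 1.63, while the sums of all 5 were lower, at 76.4 to 108 CPM against 136 to 172.5 CPM. The part of these in the members' values was not tested.

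The log2FCs in Hampshire were lower for longer genes (Spearman's rho = -0.386 across 9945 genes with a length, which are not independent replicates), and the median length was 12051 bases for the members and 18949 for all genes. With a trend of log CPM on gene length removed in each pig, over the genes with a length, GPX4 was at 0.15 and PRDX5 no longer passed. SOD2 then passed, at -0.57 (adjusted p = 0.0418), and so did CAT, at 0.93 (adjusted p = 0.0233). With library size alone in place of TMM, SOD2 was at -0.60 (adjusted p = 0.0277), the median of all genes shifted to -0.12, and 28.8% of the calls over all genes were higher, against 45.1% with TMM. SOD2 also passed with a minimum of 10 counts in every pig, at -0.53 (adjusted p = 0.0495). It did not pass with DESeq2 (adjusted p = 0.0793) or with DESeq2 size factors in edgeR (adjusted p = 0.102). Nor did SOD2 pass in any of the 6 edgeR fits that left out a pig, with adjusted p-values from 0.0774 to 0.276.

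**Figure D3:**
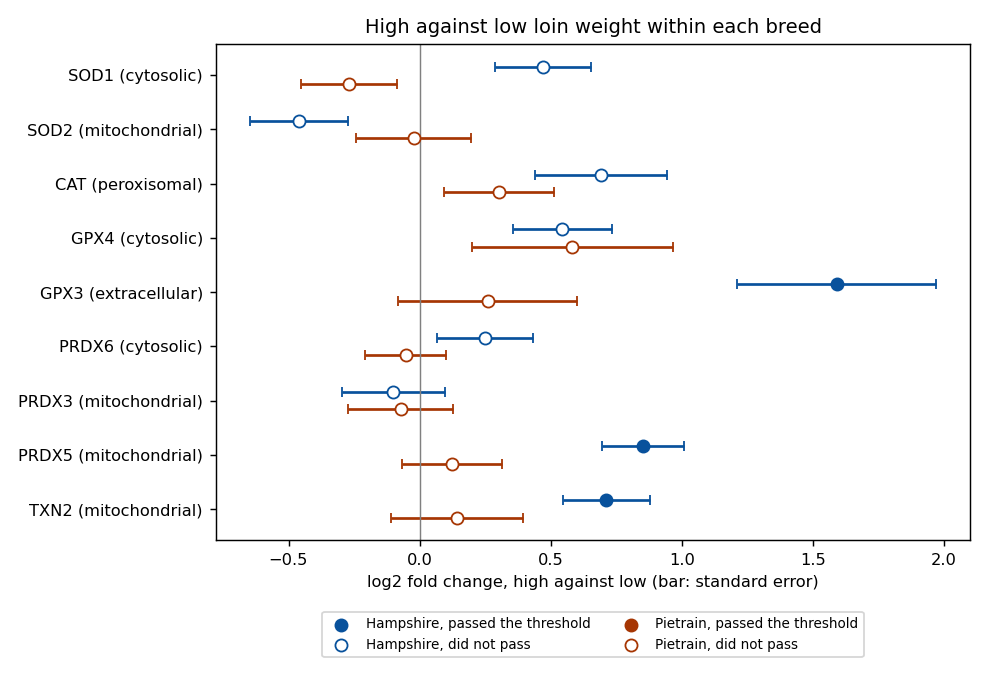
Log2 fold change for high against low loin weight (horizontal axis) with its standard error (SE, bars) for each gene (rows) in Hampshire and in Pietrain, from edgeR within each breed. Filled points passed the threshold. Only PRDX5 (0.85), TXN2 (0.71) and GPX3 (1.59) in Hampshire are filled, and the Pietrain values lie between -0.27 and 0.58.

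In Pietrain 0 of the 9 members were called, as were 0% of all 12065 genes tested (edgeR; DESeq2 called 1 gene, not a member). The study, with DESeq2 and an adjusted p-value under 0.05, reported many genes that differ with loin weight in Pietrain. The reason for this disagreement was not tested, and 0 calls do not show that loin weight had no effect. Before adjustment, 398 genes, or 3.3%, and 0 members had a p-value under 0.05. The high and low groups overlapped for all 9 members, while 4.59% of all genes did not overlap. The median log2FC of the members was 0.12, against 0.02 over all genes.

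The largest value was that of GPX4, with 10.7, 11.7, 5.90 and 19.7 CPM in the 4 pigs of the high group and 9.36, 5.77 and 9.54 CPM in the 3 of the low group (log2FC 0.58, SE 0.383, adjusted p = 0.939). It rested on few reads, between 73 and 394 per pig. SOD1 was at 107, 102, 141 and 95.5 CPM against 127, 154 and 132 CPM, a log2FC of -0.27 (SE 0.184, adjusted p = 0.939). SOD2 was at 328, 462, 254 and 368 CPM against 324, 377 and 401 CPM, a log2FC of -0.02 (SE 0.221, adjusted p = 0.989). PRDX5 and TXN2 had log2FCs of 0.12 (SE 0.190) and 0.14 (SE 0.251).

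Pietrain pigs with high loin weight varied more among themselves than those with low loin weight for SOD1, SOD2, CAT, TXN2 and GPX4, by the SD of their CPM, and less for PRDX3, PRDX5, PRDX6 and GPX3. Pig 6 had the lowest SOD2, PRDX3, PRDX5, TXN2, GPX3 and GPX4 of the 4, and the highest SOD1 and CAT. Its slow fibre sum was 747 CPM and its sum of mitochondrial content genes 6773 CPM, both the lowest of the 4. Slow fibre sums in this group ran from 747 to 11151 CPM, and in the low group from 27.7 to 8265 CPM. Their part in the members' values was not tested.

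The difference between the breeds in the effect of loin weight was tested in 1 fit over all 13 pigs. It was called for 0 of the 9 members, against 5.9% of all 12831 genes (edgeR). Unadjusted p-values were under 0.05 for 3 members, against 22.1% of all genes. PRDX5 differed by 0.77 on the log2 scale (SE 0.229, adjusted p = 0.0637), SOD1 by 0.78 (SE 0.260, adjusted p = 0.0930) and GPX3 by 1.37 (SE 0.563, adjusted p = 0.168), each higher in Hampshire. DESeq2 called 2 of them, PRDX5 (adjusted p = 0.0242) and SOD1 (adjusted p = 0.0347). With edgeR, SOD1 passed without Pietrain high loin weight pig 6 (adjusted p = 0.0374) and PRDX5 without pig 7 (adjusted p = 0.0394). The difference for SOD2 was -0.39 (SE 0.298, adjusted p = 0.478).

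Between the breeds, GPX4 was higher in Hampshire at both loin weights. In pigs with low loin weight it was at 21.2 to 23.9 CPM in Hampshire and 5.77 to 9.54 CPM in Pietrain, a log2FC of 1.43 (SE 0.344, adjusted p = 0.0190, edgeR), or 2.69-fold. In pigs with high loin weight it was at 24.9 to 38.9 CPM against 5.90 to 19.7 CPM, a log2FC of 1.43 (SE 0.311, adjusted p = 0.00218). These comparisons use the same pigs as those of loin weight and are not independent of them.

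At low loin weight 2 of the 9 members were called, 1 higher and 1 lower in Hampshire, against 17.9% of all genes (7.84% higher and 10.1% lower). Besides GPX4 this was PRDX6, the glutathione-dependent peroxiredoxin, at 115, 104 and 80.4 CPM in Hampshire and 148, 158 and 164 CPM in Pietrain (log2FC -0.65, SE 0.163, adjusted p = 0.0214). Both calls were lost without Hampshire low pig 2 or 3 or without Pietrain low pig 5 or 8, with adjusted p-values of 0.0546 to 0.0902 for GPX4 and 0.0742 to 0.0991 for PRDX6. Without Hampshire low pig 2 only 109 of all genes were called, against 2300 with it. The groups did not overlap for 6 members, against 42.8% of all genes, and SOD1, SOD2 and CAT were among those lower in Hampshire, without passing.

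At high loin weight 5 of the 9 members were called, 4 higher and 1 lower in Hampshire, against 46.8% of all genes (22.6% higher and 24.2% lower), so this share too is near that of all genes. GPX3 was at 88.4 to 203 CPM in Hampshire and 29.0 to 60.7 CPM in Pietrain, a log2FC of 1.86 (SE 0.384, adjusted p = 0.00159). TXN2 was at 68.0 to 82.1 CPM against 23.5 to 49.8 CPM (0.99, SE 0.212, adjusted p = 0.00196). PRDX5 was at 32.98 to 34.0 CPM against 18.3 to 23.4 CPM (0.71, SE 0.155, adjusted p = 0.00218). SOD2 was the called member that was lower in Hampshire, at 152 to 207 CPM against 254 to 462 CPM, a log2FC of -0.94 (SE 0.208, adjusted p = 0.00247), or 0.521-fold.

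These 5 calls were kept in each of the 7 fits that left out a pig of these groups. The groups did not overlap for 7 members, against 48.7% of all genes. SOD1, CAT, PRDX3 and PRDX6 were not called, with adjusted p-values of 0.141, 0.641, 0.127 and 0.111, while SOD1 passed without Pietrain high pig 6 (adjusted p = 0.0415). With the trend on gene length removed, over the 9975 genes (77.7%) with a length, the call of PRDX5 was lost, at 0.14 (adjusted p = 0.449), and GPX4 was at 0.86 (adjusted p = 0.0134). PRDX3 and PRDX6 then passed as lower in Hampshire, at -0.58 and -0.47 (adjusted p = 0.0213 and 0.0210), and at low loin weight so did SOD2, at -0.62 (adjusted p = 0.0428). With library size alone the share of higher calls over all genes at high loin weight was 33.1%, against 48.3% with TMM, and PRDX3 and PRDX6 passed as lower, at -0.62 and -0.54 (adjusted p = 0.00883 and 0.0130). Marker lists also differed between the breeds. At high loin weight 15 of 27 mitochondrial content genes, 9 of 11 macrophage genes and 4 of 7 endothelial genes were called higher in Hampshire and 0 lower. Of all genes 22.6% were called higher and 24.2% lower there. The 5 slow fibre genes had a median log2FC of 1.48 with 0 called. At low loin weight 6 of 11 macrophage genes were called higher, while 2 mitochondrial content genes were called higher and 1 lower. The shares of all genes at low loin weight were 7.84% higher and 10.1% lower. The part of these lists in the members' values was not tested.

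**Figure D4:**
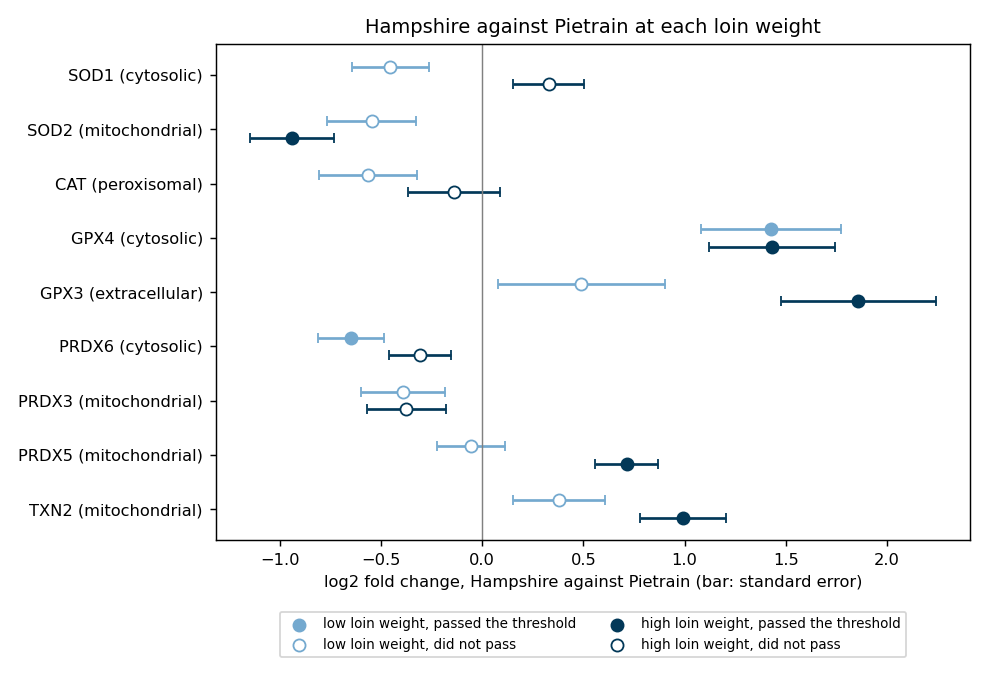
Log2 fold change of Hampshire against Pietrain (horizontal axis) with its standard error (SE, bars) for each gene (rows), at low and at high loin weight, from 1 edgeR fit over 13 pigs. Filled points passed the threshold. GPX4 is filled at both loin weights (1.43 in each), PRDX6 only at low, and SOD2 (-0.94), GPX3 (1.86), PRDX5 (0.71) and TXN2 (0.99) only at high.

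The other genes of these pathways were described by lists, whose counts in Hampshire stand beside 26.6% of all genes called, 12% as higher and 14.6% as lower. In Hampshire, 11 partners of the thioredoxin system were tested, and PRDX2 alone was called. This cytosolic peroxiredoxin, also abundant in red blood cells, rose from 188 ± 23.1 CPM (n = 3, SD) to 390.3 ± 78.3 CPM (n = 3, SD), a log2FC of 1.05 (adjusted p = 0.00795). In Pietrain it was at 161 ± 22.3 CPM (n = 3, SD) and 167 ± 40.2 CPM (n = 4, SD). HBB, a haemoglobin chain, overlapped between the Hampshire groups at 81.3 to 230.4 and 44.7 to 169 CPM, with means of 151 CPM in the high and 124 CPM in the low group. The part of blood in the PRDX2 values was not tested.

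Of 11 tested genes of glutathione synthesis and use, 5 rose and 2 fell in Hampshire, with a median log2FC of 0.48, against 12% and 14.6% of all genes. The glutathione transferases GSTK1 (1.09, adjusted p = 0.00720), GSTP1 (0.93, adjusted p = 0.00764) and MGST3 (0.86, adjusted p = 0.0121) rose. Both subunits of glutamate-cysteine ligase, which makes the first step of glutathione synthesis, fell, GCLC from 22.6 ± 1.79 to 8.46 ± 1.17 CPM (n = 3 each, SD) and GCLM from 18.0 ± 1.03 to 9.57 ± 3.08 CPM (n = 3 each, SD). Their log2FCs were -1.42 (adjusted p = 0.00222) and -0.92 (adjusted p = 0.0242). For GSTK1, MGST3 and GCLC the effect also differed between the breeds, by 1.09, 1.03 and -1.25 on the log2 scale (adjusted p = 0.0289, 0.0430 and 0.0199, edgeR).

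Of 11 genes that supply NADPH, which keeps thioredoxin and glutathione reduced, 2 rose and 0 fell in Hampshire, a share below the 26.6% of all genes called in either direction. Among these was the mitochondrial isocitrate dehydrogenase IDH2, from 378 ± 54.0 to 621 ± 68.3 CPM (n = 3 each, SD, adjusted p = 0.0218).

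The list named NRF2 regulators and targets, after the factor that switches on many antioxidant genes, also holds related genes that are neither. Of its 10 tested genes 1 rose and 3 fell in Hampshire, against 12% and 14.6% of all genes. HMOX2, the constitutive haem oxygenase, rose (1.01, adjusted p = 0.0164). BACH1, a repressor of NRF2 targets, fell from 9.21 ± 0.684 to 2.69 ± 0.5002 CPM (n = 3 each, SD, log2FC -1.78, adjusted p = 0.00249). NFE2L1, a relative of NRF2, fell by 1.30 on the log2 scale (adjusted p = 0.00276), and ABCC1, an exporter of glutathione conjugates, fell by 1.26 (adjusted p = 0.00808). The effect differed between the breeds for BACH1, by -2.29, and for NFE2L1, by -1.55 (adjusted p = 0.0104 and 0.00497). NFE2L2, which encodes NRF2, and its inhibitor KEAP1 were at -0.30 and -0.65 and did not pass (adjusted p = 0.188 and 0.161).

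Of 15 other scavengers and repair genes, 5 rose and 1 fell in Hampshire. The selenoprotein SELENOM and the mitochondrial methionine sulfoxide reductase MSRB2 had log2FCs of 1.53 and 1.45 (adjusted p = 0.00612 and 0.00748), and GPX8 one of 0.60 (adjusted p = 0.0305). MSRB3, another methionine sulfoxide reductase, fell from 193 ± 8.54 to 124 ± 23.5 CPM (n = 3 each, SD, adjusted p = 0.0262). Of 7 tested genes of superoxide and peroxide sources, 2 rose and 0 fell, among them the monoamine oxidase MAOA (1.36, adjusted p = 0.0214). In Pietrain 0 genes of these lists were called, as for all genes.

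**Figure D5:**
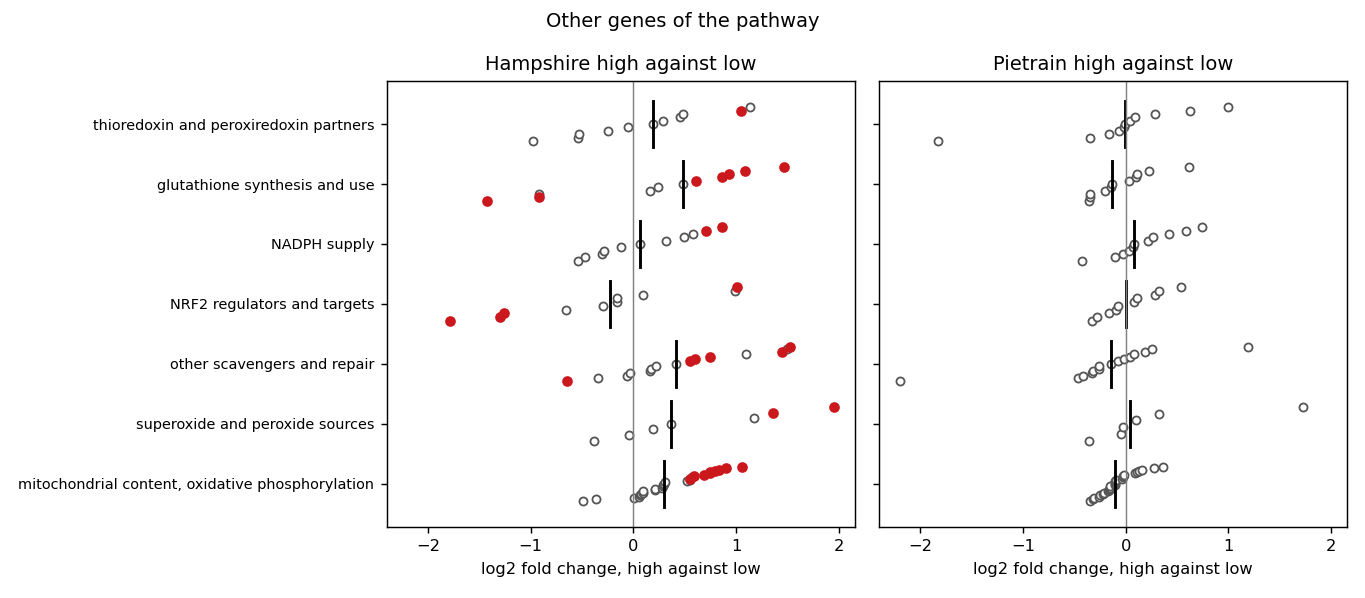
Log2 fold change for high against low loin weight (horizontal axis) of each tested gene (points) of 6 lists of antioxidant pathway genes and of the mitochondrial content list (rows), in Hampshire and in Pietrain. Red points passed the threshold and black bars are list medians, which in Hampshire run from -0.23 for NRF2 regulators and targets to 0.48 for glutathione genes. In Pietrain no point is red.

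Between the breeds at high loin weight, 8 of 11 glutathione genes were higher in Hampshire and 2 lower, against 46.8% of all genes called. GSTP1 was at 186 ± 13.2 CPM (n = 3, SD) in Hampshire and 62.1 ± 14.5 CPM (n = 4, SD) in Pietrain, and GCLM at 9.57 ± 3.08 CPM (n = 3, SD) and 38.1 ± 11.9 CPM (n = 4, SD). Their log2FCs were 1.58 and -1.99 (adjusted p = 9.8e-05 and 7.2e-05, edgeR). At low loin weight the same comparison gave 0.84 for GSTP1 and -1.005 for GCLM (adjusted p = 0.0297 and 0.0242). The oxidase MAOB of the outer mitochondrial membrane, a source of peroxide, was higher in Hampshire at both loin weights, by 1.92 at low and 1.95 at high on the log2 scale (adjusted p = 0.0141 and 8.9e-04). The copper chaperone CCS, which loads SOD1, and the extracellular SOD3 were also higher in Hampshire at both loin weights. CCS differed by 0.82 at low and 0.89 at high (adjusted p = 0.0337 and 0.00480), and SOD3 by 1.94 and 1.86 (adjusted p = 0.0214 and 0.00251). SOD3 was at low levels, with means of 3.67 CPM in Hampshire and 0.962 CPM in Pietrain at low loin weight. At high loin weight its means were 7.85 and 2.15 CPM. Lower in Hampshire at low and at high loin weight were MSRB3 (-0.99 and -1.13, adjusted p = 0.0121 and 3.9e-04) and the NADPH-forming cytosolic enzymes ME1 (-1.10 and -1.16, adjusted p = 0.0269 and 0.00468) and IDH1 (-0.87 and -0.71, adjusted p = 0.0187 and 0.00961).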

How the data were processed

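RNA-seq of longissimus lumborum was used from 13 pigs. The authors made poly-A libraries with a TruSeq kit that does not mark strand, aligned the reads to Sscrofa10.2 and deposited raw read counts for each Ensembl gene, in 1 table per breed. The submitters' processing notes name FastQC, STAR, RSEM and DESeq2, and how reads shared by near-identical genes were counted is not given in the sources used here. The authors also deposited DESeq2 tables of their own comparisons per breed (fold changes, test statistics and p-values). Only gene symbols and coordinates were taken from these, and none of their values.

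Gene symbols came from those tables and from a RefSeq name table (GPX4 from the latter), and 13168 of 25322 genes had one. Of the 188 symbols in all lists 151 matched. ADIPOQ, MYH4 and CS matched none. Groups and pig numbers are those of the sample labels, which give 4 Pietrain pigs with high loin weight where the study describes 3, and all 4 were used. Loin weight was tested within each breed, and the difference between breeds and the breed comparisons in 1 fit over 13 pigs, with edgeR 4.0.16 (TMM, filterByExpr, glmQLFit, glmQLFTest) in R 4.3.3 and Benjamini-Hochberg adjustment over all genes tested. All 9 members passed the filter on low counts in every comparison. The standard error (SE) of a log2 fold change is its size divided by the square root of F. Ratios within a pig used log2 CPM with a pseudocount of 0.5 and exact permutation tests. The precision of each value is limited by the number of pigs and, for GPX4 in Pietrain, by the reads counted.

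The members and lists were chosen with earlier results of these data known. Named genes were all members and, per pathway list and comparison, up to 3 called genes in each direction with the smallest adjusted p, some of which are not reported here. NFE2L2, KEAP1, SOD3 and CCS at high loin weight were named after their values were seen. The alternatives were DESeq2 1.42.0, its size factors in edgeR, library size alone, no filter, at least 10 counts in every pig, no fold change threshold, 1 fit over all 13 pigs, removal of a trend on the genomic span of the gene, a pseudocount of 5 and leaving out each pig. The tests, except the breed comparison at high loin weight, were also run on simulated counts. There all genes had the same dispersion and 200 were changed, unlike these data, and the outcome is not reported here. Figures were drawn with matplotlib 3.10.9. No protein, promoter or genome sequence was used here.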

Additional observations from a re-analysis of the deposited data

Results flagged for a closer look

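Within the 4 Pietrain pigs with high loin weight, 1 pig stood far from the others for PRDX3 and for CAT. PRDX3 was at 430.2 CPM in pig 2, against 308 to 322 CPM in the other 3, and CAT was at 430.8 CPM in pig 6, against 266 to 283 CPM. These gaps are 0.881 and 0.901 of the range of the group, above the limit of Dixon's test. The test was made for all 9 genes in this group, and chance flags about 1 in 20. Groups of 3 pigs were not tested.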

How the results depend on the processing

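No paired analysis was possible because the groups compared within a breed share no pig number, and numbers shared between breeds name different animals. Of the members' log2 fold changes under the alternatives, 566 kept direction and side of the threshold, 18 came to pass, 14 no longer passed and 41 changed sign. The cause was not tested. The number of members called for the difference between breeds was 2 with DESeq2. With each pig left out it was 0 to 1, and 2 to 4 in Hampshire, 0 to 0 in Pietrain, 0 to 2 between the breeds at low and 5 to 6 at high loin weight. With library size alone, signs changed in Pietrain for PRDX3 (0.025), PRDX6 (0.036) and SOD2 (0.063), and for the difference between breeds for PRDX3 (-0.26) and GPX4 (-0.24). The median of all genes for that difference was -0.29 under this setting, against -0.02. The difference for PRDX3 and GPX4 was -0.054 and -0.075 with no filter, -0.034 and -0.041 with at least 10 counts, where SOD2 in Pietrain was at 0.0089, and -0.11 and -0.36 with the length trend removed. That removal gave 0.23 for CAT and 0.14 (adjusted p = 0.449) for PRDX5 between the breeds at high loin weight. Lengths were known for 77.7% of genes in the comparisons over 13 pigs and for all 9 members. With each pig left out, values crossed 0 for PRDX3 in Hampshire (-0.21 to 0.058), for SOD2 (-0.16 to 0.12), GPX3 (-0.047 to 0.51), TXN2 (-0.035 to 0.33) and PRDX3 (-0.19 to 6.6e-05) in Pietrain, for the differences of PRDX3 (-0.15 to 0.16) and GPX4 (-0.30 to 0.36), for PRDX5 at low (-0.11 to 0.073) and CAT at high loin weight (-0.35 to 0.026) between the breeds, and for the log2 ratio of PRDX3 to PRDX6 in Pietrain (-0.14 to 0.062). Over all genes, 1224 to 3049 were called in Hampshire with each pig left out, against 3256, the lowest without low loin weight pig 3. The difference between breeds gave 379 to 1052, against 757, and 1223 with DESeq2 and 483 with the length trend removed. Between the breeds at low loin weight 109 to 2611 were called, against 2300, and at high loin weight 4640 to 6288. In Pietrain 398 genes had an unadjusted p-value under 0.05, and few reads limit GPX4 there.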
